A study of Homo sapiens with 12 samples.

Results

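HIF1A encodes the oxygen-regulated subunit of the transcription factor HIF-1, and SLC2A1, HKDC1, PGK1 and LDHA encode a glucose transporter and enzymes of glucose breakdown. These 5 genes and the hypoxia-induced gene NDRG1 were followed through 4 groups of HCT-116 cells, a long-established line from a human colorectal carcinoma. The 6 genes were picked by name out of the 770 on the panel, with their group values and p-values in these comparisons already known, so those values are a description and no test of the 6 genes as a set was made. Glycolytic genes were set against other genes that respond to hypoxia.

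RNA was counted with NanoString nCounter, in which fluorescent barcodes on hybridised probes are counted without amplification, on the PanCancer Progression panel. The groups were cells given heteronemin (a sesterterpenoid of a marine sponge), cells given tetrac (tetraiodothyroacetic acid, a deaminated analogue of thyroxine), cells given both, here called the combination, and control cells, with 3 samples in each and 24 h of treatment. The sources used here give neither doses nor whether control cells received a vehicle. Nor do the labels name separate cultures for the samples of 1 group, so the deposited p-values may measure technical spread only.

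The files hold 1 value per gene and group, a normalized count pooled by the authors, and no value per sample, so the values below carry no SD, raw depth is unknown and no spread is available to rank neighbouring groups. The lowest value of any group was 33, taken here as the authors' floor. A gene's value also depends on its probe, so values were compared between groups of samples and not between genes. Of 20 markers of colon epithelium, 12 were measured, and EPCAM had 1403 after heteronemin, 1581 after tetrac, 1520 under the combination and 1814 in control, while CEACAM5 was at the floor in control. Of the 12, 7 were above control after heteronemin, 4 after tetrac and 8 under the combination, and the others were below it.

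HIF-1 is a dimer whose HIF1A subunit is made continuously and is destroyed in the presence of oxygen, after prolyl hydroxylases (the EGLN enzymes) mark it for the VHL ubiquitin ligase. Its activity is therefore set mainly through the amount of protein, which a transcript count does not show. When stabilised, HIF-1 binds DNA at sites with the core ACGTG or GCGTG and is known to raise transcription of glucose transporters, of nearly every glycolytic enzyme and of LDHA, which turns pyruvate into lactate. Colorectal carcinoma cells commonly run glycolysis at a high rate also in the presence of oxygen.

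The promoter windows of PGK1 and LDHA, the 2 glycolytic members with the lowest values relative to control after heteronemin, and of HKDC1, which had the highest, are shown because they differ in this core. They are RefSeq sequences of GRCh38.p14, each from 250 bases before to 50 bases after the start of the gene, 5′ to 3′ along the gene, with every ACGTG of either strand in capitals (CACGT on the printed strand, and CACGTG where both strands overlap).
PGK1, chrX:78103998-78104297, plus strand: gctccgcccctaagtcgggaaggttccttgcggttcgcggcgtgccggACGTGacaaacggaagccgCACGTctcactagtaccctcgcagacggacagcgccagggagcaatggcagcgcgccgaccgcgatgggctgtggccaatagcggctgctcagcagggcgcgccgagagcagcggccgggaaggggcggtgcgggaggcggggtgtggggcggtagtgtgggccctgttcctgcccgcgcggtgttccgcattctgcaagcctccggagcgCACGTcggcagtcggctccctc
LDHA, chr11:18394313-18394612, plus strand: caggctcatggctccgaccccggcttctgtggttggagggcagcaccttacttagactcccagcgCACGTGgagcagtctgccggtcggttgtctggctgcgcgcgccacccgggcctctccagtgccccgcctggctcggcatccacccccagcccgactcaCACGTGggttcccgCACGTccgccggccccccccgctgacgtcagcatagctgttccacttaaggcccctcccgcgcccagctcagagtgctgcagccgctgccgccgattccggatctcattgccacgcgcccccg
HKDC1, chr10:69220082-69220381, plus strand: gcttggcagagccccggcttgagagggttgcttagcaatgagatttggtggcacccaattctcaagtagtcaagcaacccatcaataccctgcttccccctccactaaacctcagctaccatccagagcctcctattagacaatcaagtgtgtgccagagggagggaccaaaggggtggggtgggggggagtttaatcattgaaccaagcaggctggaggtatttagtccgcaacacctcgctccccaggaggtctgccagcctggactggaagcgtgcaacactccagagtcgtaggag
PGK1 had 3 such sites, at 202 and 183 bases before the start and 28 bases after it. LDHA had 3, at 185, 87 and 73 bases before the start, and a second RefSeq window of LDHA had 0. HKDC1, SLC2A1 and both windows of HIF1A had 0 sites with ACGTG, and 1 window of each held the other core, GCGTG, as did those of PGK1 and LDHA. Over all 35116 windows of the table, 21.4% held ACGTG and 0.461% held 3 or more sites. Among the measured genes of glucose uptake and glycolysis, 10 of 22 windows held ACGTG, and among those of the other hypoxia-responsive genes 11 of 22 did. A match of letters is a description of the sequence and shows no binding, and the window of NDRG1 was not used here. The printed windows were chosen by their ratios and their sites. HIF1A and SLC2A1, also lower than control after heteronemin, had 0 sites with ACGTG. A link between sites and ratios was not tested.

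HIF1A was lowest after heteronemin. The authors' values were 1235 after heteronemin, 1517 after tetrac, 1479 under the combination and 1582 in control. The heteronemin value was 78.1% of control, and tetrac and the combination lay within 10% of it, at 95.9% and 93.5%. In the authors' deposited table the p was 0.03 for heteronemin, 0.71 for tetrac and 0.19 for the combination. On the log2 scale the ratio to control was -0.36 after heteronemin, -0.06 after tetrac and -0.10 under the combination. The 51 genes nearest to HIF1A in mean value, HIF1A included, had a median log2 ratio of -0.37 after heteronemin, and HIF1A lay 0.009 above it. After tetrac its ratio lay above 96% of the 50 neighbours. The combination value of HIF1A was 1.20-fold that of heteronemin alone, a difference for which the tables hold no test.

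SLC2A1 encodes GLUT1, the transporter that brings glucose into most proliferating cells. The authors' values were 230 after heteronemin, 225 after tetrac, 243 under the combination and 273 in control. All treated groups lay below control, in the narrow span from 82.7% to 89.0% of it. The p in the authors' deposited table was 0.04 for heteronemin, 0.04 for tetrac and 0.08 for the combination. SLC2A1 was the only member of the 6 with a p under 0.05 after tetrac. Its log2 ratio after tetrac, -0.27, lay above 2% of the 50 genes nearest in value, against 26% after heteronemin and 40% under the combination.

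HKDC1 encodes a hexokinase-like protein that phosphorylates glucose, the first step of its breakdown. The authors' values were 115 after heteronemin, 43.5 after tetrac, 109 under the combination and 34.4 in control. The 2 groups that received heteronemin stood about 3-fold above control, at 3.34-fold for heteronemin and 3.16-fold for the combination, and tetrac at 1.26-fold. In the authors' deposited table the p was 0.02 for heteronemin, 0.49 for tetrac and printed as 0, which stands for any p below 0.005, for the combination. The control value lies just above the floor of 33, so these ratios depend on where the authors set it.

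Genes near the floor in control commonly had higher values in every treated group, but this direction follows largely from how such genes are picked. On the panel 279 genes were at the floor in control, where no lower value is possible, and genes just above it could hardly fall. The size of the HKDC1 ratios, and not their direction, was therefore read against genes near the floor. Of 310 other genes with a control value no higher than that of HKDC1, 2 had as large a ratio after heteronemin, 149 after tetrac and 0 under the combination. HKDC1 was chosen with its values known, so its place among them is a description. Of the 310, 242 were above the floor after heteronemin, 251 after tetrac and 222 under the combination. The median log2 ratio of the 310 was 0.65 after heteronemin, 0.33 after tetrac and 0.32 under the combination. The 13 measured markers of endothelial, blood and stromal cells, types absent from a pure carcinoma line, were likewise low. Their summed value was 719 after heteronemin, 538 after tetrac, 581 under the combination and 433 in control. Of these 13 markers, 9 were at the floor in control, where no lower value is possible, and TEK was there in all 4 groups. The part of such cell types in the HKDC1 values was not tested.

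PGK1 encodes phosphoglycerate kinase, the first ATP-producing step of glycolysis. The authors' values were 2683 after heteronemin, 3497 after tetrac, 3030 under the combination and 3992 in control. Control was highest and heteronemin lowest, at 67.2% of control, with the combination at 75.9% and tetrac at 87.6%. The p in the authors' deposited table was 0.04 for heteronemin, 0.36 for tetrac and 0.07 for the combination.

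LDHA encodes the lactate dehydrogenase chain that favours the making of lactate. The authors' values were 4594 after heteronemin, 6214 after tetrac, 4543 under the combination and 6960 in control. The 2 groups that received heteronemin were nearly equal, at 66.0% and 65.3% of control, and tetrac lay at 89.3%. The p in the authors' deposited table was 0.02 for heteronemin, 0.34 for tetrac and printed as 0 for the combination.

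Most genes of high value on the panel were below control in the treated groups, as PGK1 and LDHA were. Of the 71 genes with a mean value of 1000 or more over the 4 groups, 64 had a lower value than control after heteronemin, 69 after tetrac and 54 under the combination, with median log2 ratios of -0.40, -0.17 and -0.26 in that order. Against the 51 genes nearest in value, LDHA lay 0.17 lower after heteronemin and 0.32 lower under the combination on the log2 scale, above 10% of its 50 neighbours in both. PGK1 lay 0.15 lower after heteronemin and 0.10 lower under the combination, above 14% and 38% of its neighbours. Few genes of the panel had values this high, so the neighbours span mean values of 1186 to 9836 for LDHA and 1182 to 8318 for PGK1. After tetrac the log2 ratios of LDHA and PGK1, -0.16 and -0.19, lay 0.005 above and 0.02 below that median. The part of this level-dependent shift in the values of PGK1 and LDHA was not tested.

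NDRG1 encodes a stress-responsive protein of the cytoplasm that is widely used as a readout of hypoxia, and is no enzyme of glucose breakdown. The authors' values were 1084 after heteronemin, 602 after tetrac, 1388 under the combination and 721 in control. Both groups that received heteronemin stood above control, at 150.4% of it for heteronemin and 192.7% for the combination, and tetrac lay below it at 83.5%. In the authors' deposited table the p was 0.02 for heteronemin, 0.20 for tetrac and 0.02 for the combination. Genes of like level went the other way: the median log2 ratio of the 51 nearest was -0.33 after heteronemin and -0.21 under the combination, against 0.59 and 0.95 for NDRG1. After tetrac its log2 ratio, -0.26, lay above 2% of the 50 nearest genes. Its combination value was 1.28-fold the heteronemin value and 2.31-fold the tetrac value, with no test in the tables.

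**Figure D1:**
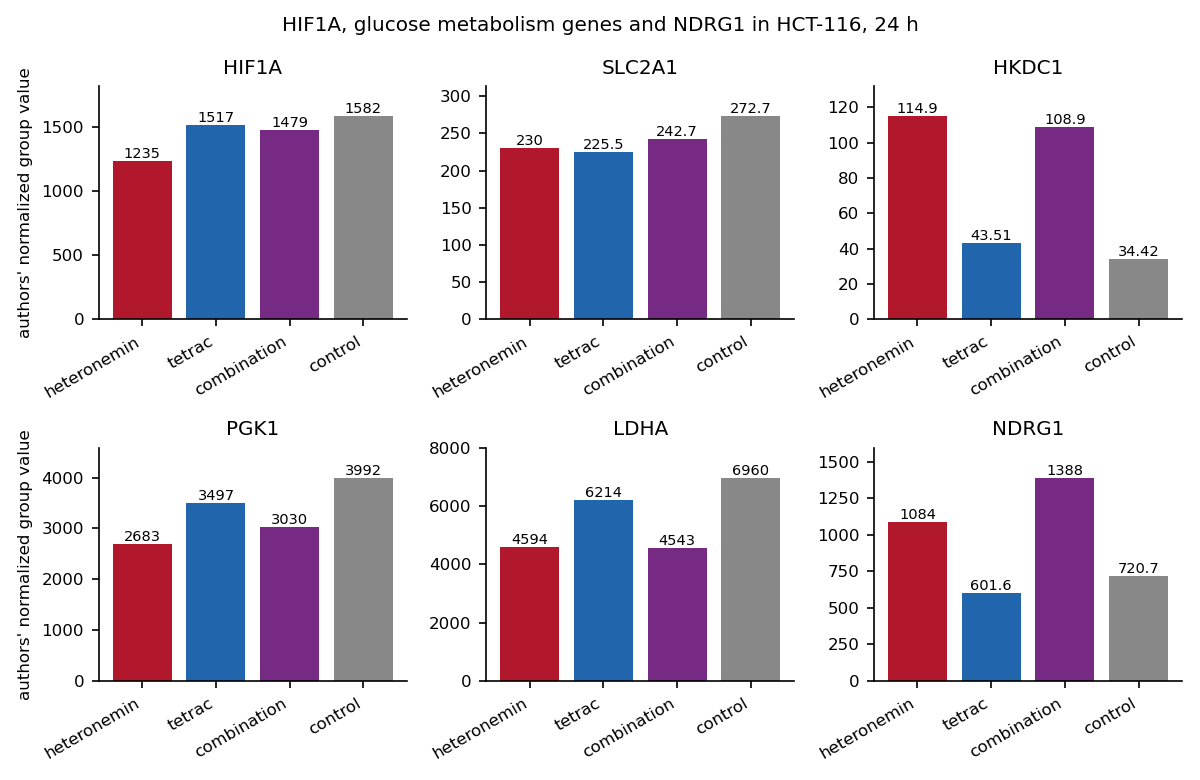
Authors' normalized group value (vertical axis, from 0, with its own scale for each gene) of HIF1A, SLC2A1, HKDC1, PGK1, LDHA and NDRG1 after heteronemin, tetrac and the combination and in control. Each bar is 1 pooled value without an error; HKDC1 and NDRG1 were above control in both groups that received heteronemin, at 115 and 109 against 34.4 and at 1084 and 1388 against 721, and PGK1 and LDHA were below it.

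Counted by the authors' p under 0.05, heteronemin had 4 of the 6 genes lower (HIF1A, SLC2A1, PGK1, LDHA) and 2 higher (HKDC1, NDRG1). Over the panel, 27.1% of 704 tested genes were under that p after heteronemin, 15.9% lower and 11.2% higher, and the choice of the 6 genes used this comparison. After tetrac it was 1 of the 6 (SLC2A1, lower), beside 1.26% of 714 tested genes (0.98% lower and 0.28% higher). The combination had 2 of the 6 higher (HKDC1, NDRG1) and 1 lower (LDHA), beside 22.3% of 686 tested genes (8.16% higher and 14.1% lower). With the added condition of a fold of 1.5 or more, 3 of the 6 remained after heteronemin, 0 after tetrac and 3 under the combination, beside 13.5%, 0% and 10.1% of tested genes. With Benjamini-Hochberg adjustment over all tested genes of a table, and each p set to the upper end of its rounding, 0 of the 6 genes and 0% of all tested genes passed in each comparison. With the p as printed, HKDC1 and LDHA passed under the combination, beside 7% of tested genes there, 5.82% after heteronemin and 0% after tetrac. The same genes and shares had a printed p under 0.01.

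**Figure D2:**
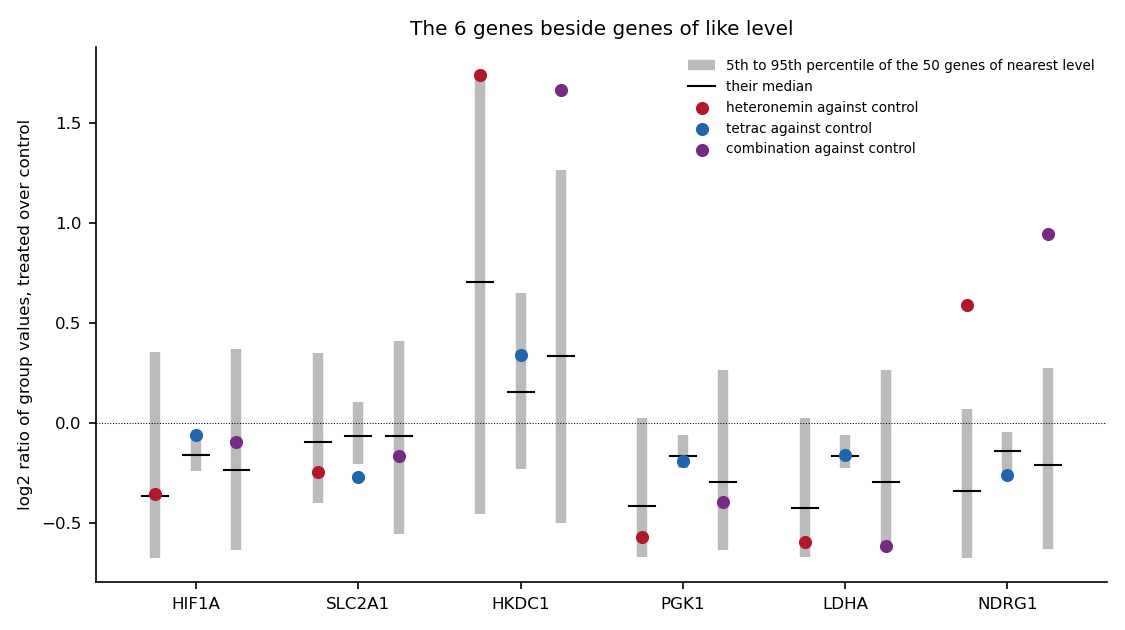
Log2 ratio of the treated over the control value (vertical axis) for the 6 genes in the 3 comparisons, with the 5th to 95th percentile (grey) and the median (black line) of the 50 genes nearest in mean value. HIF1A after heteronemin, at -0.36, lay on the median of genes of like level, while NDRG1 after heteronemin and the combination, at 0.59 and 0.95, lay above the grey range.

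The combination was set beside each compound alone. The log2 ratio of the combination over heteronemin was 0.36 for NDRG1, 0.26 for HIF1A, 0.18 for PGK1, 0.08 for SLC2A1, -0.02 for LDHA and -0.08 for HKDC1. For this ratio NDRG1 lay above 96% and HIF1A above 88% of their 50 neighbours in value, and LDHA above 10%. Of the 6, 4 were thus higher in the combination than after heteronemin. Set against tetrac, the combination had log2 ratios of 1.32 for HKDC1, 1.21 for NDRG1, 0.11 for SLC2A1, -0.04 for HIF1A, -0.21 for PGK1 and -0.45 for LDHA. The 3 comparisons with control share the same control samples, so their ratios are not independent of each other.

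The other measured genes of glucose uptake and glycolysis were counted to see whether the 4 glycolytic members stood for the pathway. Of 43 genes on the list 15 were measured, all above the floor in every group. After heteronemin 2 were higher and 3 lower at the authors' p under 0.05, beside 11.2% and 15.9% of all tested genes, and 4 of these 5 are the members chosen with their values known. Apart from HKDC1, SLC2A1, PGK1 and LDHA the 1 further gene was PFKFB1, a regulatory enzyme of glycolysis, at 50.9 after heteronemin against 33.5 in control (p = 0.01 in the authors' deposited table). After tetrac 0 genes of the list were higher and 1 was lower, beside 0.28% and 0.98% of all tested genes. Under the combination 1 was higher and 2 were lower, beside 8.16% and 14.1% of all tested genes. The 2 lower were LDHA and the glucose-6-phosphate isomerase GPI. GPI had 1024 under the combination against 1314 in control (p = 0.03 in the authors' deposited table).

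Of the genes of the list that are not members, 4 with values over 1000 in every group had ratios below 1 after heteronemin and did not pass. The aldolase ALDOA had a log2 ratio of -0.40, the pyruvate kinase PKM of -0.40, the enolase ENO1 of -0.34 and GPI of -0.37, with p between 0.06 and 0.14 in the authors' deposited table. Their distances from the median of genes of like level were 0.02, 0.03, 0.09 and -0.01 on the log2 scale. Under the combination ALDOA had -0.25, PKM -0.40 and ENO1 -0.27, and after tetrac -0.19, -0.17 and -0.23, none of them called. PFKFB4, which controls the level of the glycolytic activator fructose 2,6-bisphosphate, had a log2 ratio of -0.39 after heteronemin and -0.17 under the combination. HK2, the main hexokinase of many tumours, had log2 ratios of -0.01, -0.04 and 0.01 after heteronemin, tetrac and the combination, and HK3 of 0.78, 0.34 and 0.26 from a control value of 34.1. The enolase ENO2 had 0.06, -0.09 and 0.12, and ENO3 0.44, -0.09 and 0.10. The pyruvate dehydrogenase kinase PDK1 had -0.19, -0.12 and -0.09, and none of HK2, HK3, ENO2, ENO3, PFKFB4 and PDK1 passed in any comparison. Against the median of genes of like level after heteronemin, PFKFB4 lay at -0.68, ENO3 at -0.52 and PDK1 at -0.10. HK3 and PFKFB1 lay at 0.01 and 0.02, HK2 at 0.13 and ENO2 at 0.20.

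**Figure D3:**
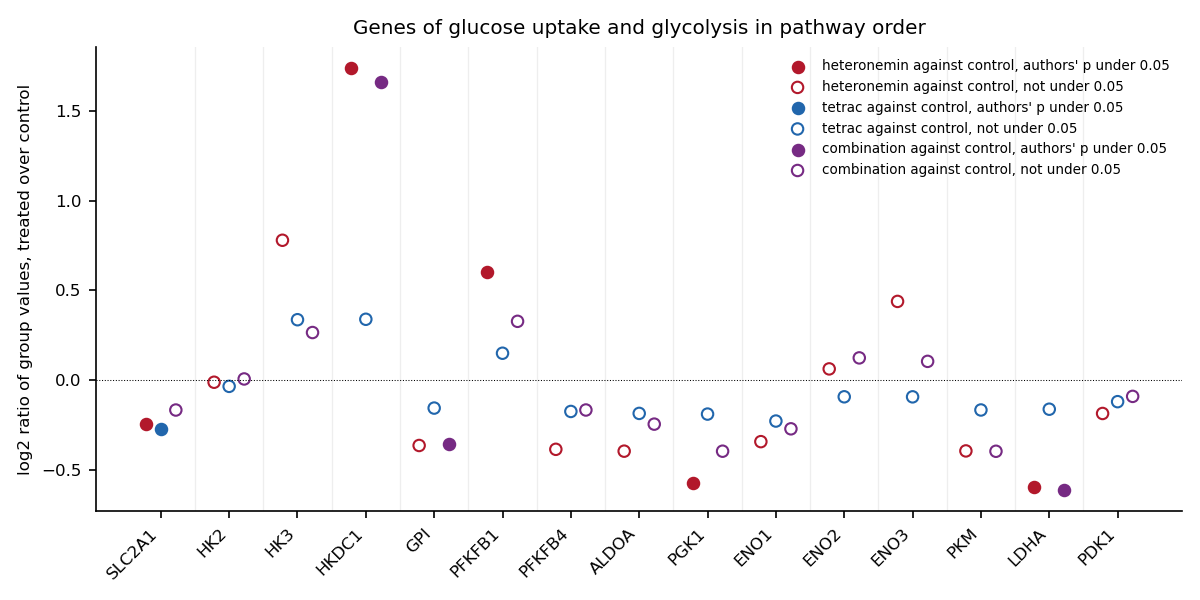
Log2 ratio of the treated over the control value (vertical axis) for the 15 measured genes of glucose uptake and glycolysis, in the order of the pathway from the transporter SLC2A1 to LDHA and PDK1. Filled points have an authors' p under 0.05; HKDC1, at 1.74 after heteronemin and 1.66 under the combination, stands apart from the other hexokinases HK2 (-0.01 and 0.01) and HK3 (0.78 and 0.26).

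Genes that sense oxygen or act with HIF1A were also counted. Of 22 on the list 13 were measured, and 0 were higher and 5 lower after heteronemin at the authors' p under 0.05, beside 15.9% lower of all tested genes. After tetrac it was 0 and 0, beside 0.28% higher and 0.98% lower of all tested genes, and under the combination 0 and 2, beside 8.16% and 14.1%. HIF1A, chosen with its values known, is 1 of the 5. Besides HIF1A, the fallers after heteronemin were the coactivator CREBBP (log2 ratio -0.28), the elongin C gene listed as TCEB1 (-0.21), MTOR (-0.17) and STAT3 (-0.36). Against the median of genes of like level, CREBBP lay at -0.07, TCEB1 at 0.21, MTOR at 0.03 and STAT3 at -0.04. After the combination they were CREBBP (-0.32) and RBX1 (-0.38), the RING subunit of the ubiquitin ligase, at -0.23 and -0.14 against genes of like level. The prolyl hydroxylase EGLN3, itself a hypoxia-induced gene, had 147 after heteronemin, 90.9 after tetrac, 105 under the combination and 89.4 in control. Its p after heteronemin was printed as 0.05 in the authors' deposited table, as was that of RBX1 (log2 ratio -0.46), and neither was counted.

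Of the remaining genes of that list, none passed in any comparison. EPAS1, which encodes the related subunit HIF-2 alpha, had log2 ratios of -0.09 after heteronemin, 0.09 after tetrac and -0.12 under the combination. VHL had -0.16, -0.08 and -0.07, the hydroxylase EGLN2 -0.24, -0.04 and -0.14, and the coactivator EP300 -0.26, -0.20 and -0.21. The elongin B gene TCEB2 had -0.23, 0.01 and -0.23, and the deacetylase SIRT1 -0.09, 0.01 and 0.00.

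The list of other hypoxia-responsive genes held 57, of which 22 were measured, 14 of them above the floor in all groups and 8 at the floor in control, where no lower value is possible. At the authors' p under 0.05, 7 were higher and 2 lower after heteronemin, beside 11.2% higher and 15.9% lower of all tested genes. After tetrac it was 1 and 0, beside 0.28% and 0.98% of all tested genes, and under the combination 7 and 1, beside 8.16% and 14.1%. NDRG1, chosen with its values known, is 1 of the 7 in both. ANGPTL4, a secreted inhibitor of lipoprotein lipase, had 105 after heteronemin, 71.8 after tetrac, 155 under the combination and 48.6 in control, and it was the gene of this list called in all 3 comparisons. The haem oxygenase HMOX1 had 207, 95.6, 242 and 96.6 in the same order, and was higher after heteronemin and under the combination. VEGFA, the endothelial growth factor, had 660, 466, 771 and 461, with p = 0.06 for heteronemin, 0.89 for tetrac and 0.01 for the combination in the authors' deposited table.

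The interleukin-8 gene CXCL8, which many stress signals induce besides hypoxia, had 535 after heteronemin, 74.4 after tetrac, 892 under the combination and 65.5 in control. PTGS2, an inducible prostaglandin synthase, and LOXL2, a collagen cross-linking enzyme, were higher after heteronemin, at log2 ratios of 1.35 and 0.99. Under the combination PTGS2 and LOXL2 had log2 ratios of 0.44 and 0.32 and were not called, and the difference between the treatments was not tested. PLAUR, the urokinase receptor, was higher under the combination (log2 ratio 0.52). The membrane protease MMP14 was lower after heteronemin (-0.60) and under the combination (-0.35), and the integrin chain ITGA5 was lower after heteronemin (-0.27).

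The median log2 ratio of the glycolysis list was -0.25 after heteronemin, -0.16 after tetrac and -0.17 under the combination. That of the other hypoxia-responsive genes was 0.55, 0.07 and 0.43, and that of all 770 genes 0.11, 0.02 and 0.09. The glycolysis median minus the other list's median was thus -0.80 after heteronemin, -0.22 after tetrac and -0.60 under the combination. The lists also differ in level, since 11 of the 15 glycolytic genes but 9 of the 22 others had a mean value of 100 or more. After subtraction of the median of genes of like level, that difference was -0.11, -0.027 and -0.10, and among genes at 100 or more it was -0.81, -0.12 and -0.99. The mean behind this limit includes the treated groups. CXCL8 and HMOX1, at 65.5 and 96.6 in control, passed it only through their values after heteronemin and under the combination. The limit thus favours genes that are high in those groups. The genes of like level were matched on the same mean. A gene near the floor in control that rose was thus matched with others that rose. The subtraction therefore removes part of such rises by the way it is made. The part of level in the difference between the lists was not tested.

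**Figure D4:**
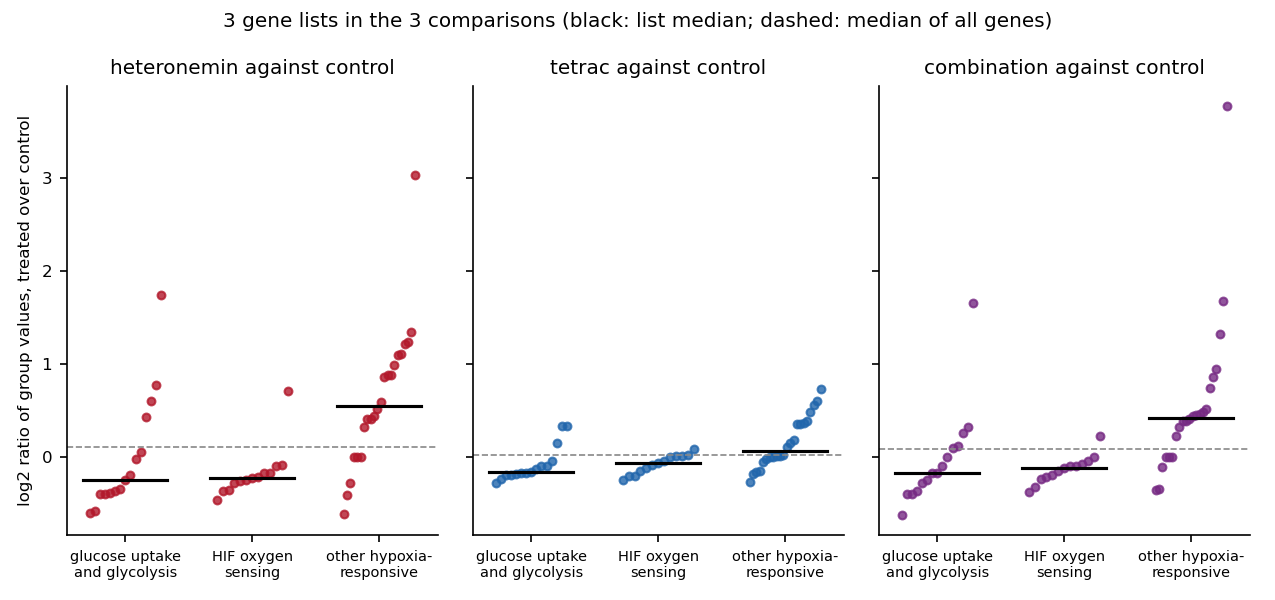
Log2 ratio of the treated over the control value (vertical axis) of every measured gene of 3 lists, 1 panel per treatment, with the list median in black and the median of all genes dashed. After heteronemin the medians were -0.25 for glucose uptake and glycolysis, -0.23 for HIF oxygen sensing and 0.55 for the other hypoxia-responsive genes, with overlapping points.

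The genes most like each member were those with the smallest of the largest differences over the 3 log2 ratios, among 476 genes above the floor in all 4 groups. MGAT5 and CUL1 were nearest to HIF1A, within 0.04 and 0.05, and ERMP1 and MTDH nearest to SLC2A1, within 0.04 and 0.05. LGALS1 and PPP2R1A were nearest to PGK1 (0.03 and 0.05), and ROCK2 and ST14 to LDHA (0.03 and 0.04). These 4 members had 11 to 17 genes within 0.1. HKDC1 had 0 genes within 0.1, with MYCL at 0.14 and SPP1 at 0.25, and NDRG1 had 1, CLU at 0.08, followed by CTSL at 0.11. The likeness rests on 4 pooled values per gene, 3 of them set against the same control.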

How the data were processed

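RNA of 12 HCT-116 samples in 4 groups was measured with the nCounter PanCancer Progression panel, per the labels' protocols. The authors used nSolver 4.0 for a technical normalization of the raw counts (by positive control factor) and a biological one, per the series' design text. The authors deposited a normalized signal, 1 pooled value per gene and group, in 3 tables of 770 genes (740 endogenous, 30 housekeeping) with the same control column. The authors deposited a score, the signed fold change, which matched the quotient of their values within 0.00511. The authors deposited a p-value per gene with 2 decimals, left empty where both values were at 33. For the kind of mean, the test and the background threshold, the sources used here give nothing.

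Log2 ratios of the group values were computed, and a gene was counted at the authors' p under 0.05. Benjamini-Hochberg adjustment ran over all tested genes of a table, on the printed p and on the largest p that rounds to it (printed p plus 0.005). For the level correction, the median log2 ratio of the 51 genes nearest in mean value over the 4 groups, the gene included, was subtracted. No test between treated groups, of a list or of the members was made. The adjustment and the level correction were checked on simulated data. The members, lists and named genes (the 6 genes, list genes under the p or on the glycolysis and sensing lists, and 2 most alike per member) were chosen with earlier results of these data known. A further gene that these rules name is counted but not reported here by name. Of the 770 symbols, 755 were current in RefSeq and 15 matched by accession. Promoter sequences are RefSeq's, on GRCh38.p14, and the tables themselves name no build. Alternatives were another p threshold, a fold of 1.5, a mean value of 100 or more, housekeeping or panel median centring and the level correction. Python 3.11.15, numpy 2.4.6, pandas 2.3.3, scipy 1.17.1 and matplotlib 3.10.9 were used.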

Additional observations from a re-analysis of the deposited data

How the results depend on the processing

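No paired analysis was possible because the tables hold pooled group values and none per sample; leaving out replicates was not run for the same reason. Of the 6 genes counted after heteronemin, 0 passed at p under 0.01, 0 with Benjamini-Hochberg adjusted p (printed p) and 0 with each p at the upper end of its rounding, and 3 passed with a fold of 1.5 or more. The 1 gene counted after tetrac became 0 under each of these 4 settings. The 3 counted in the combination became 0 with adjustment of the largest p, at a smallest adjusted p of 0.0715 over the table. With p-values of 2 decimals, no gene could pass that adjustment after heteronemin or under the combination. The distance of the glycolysis list from the other hypoxia-responsive genes was -0.80, -0.22 and -0.60 (log2) after heteronemin, tetrac and the combination. It was -0.11, -0.027 and -0.10 with level correction, where the cause of the change was not tested, and -0.63 after heteronemin with means in place of medians. At a mean value of 100 or more it was -0.12 after tetrac and -0.99 under the combination. That mean, which also sets the genes of like level in the level correction, includes the treated groups. CXCL8 and HMOX1 passed the limit only through the treated groups. Near the floor in control, the level correction removes part of a rise by the way it is made. Without the 6 members, an alternative chosen after seeing the data, the distance between the lists moved by under 0.1. Housekeeping centring turned 0 of 30 ratios of the 6 genes. The subtracted means ran only from -0.017 to 0.0072 on the log2 scale, so this centring could hardly turn a sign. Panel median centring turned that of HIF1A after tetrac to 0.0047. Level correction turned 6: HIF1A to 0.0090 after heteronemin, 0.10 after tetrac, 0.14 under the combination and 0.020 in the combination against tetrac, LDHA to 0.0047 after tetrac, and HKDC1 to 0.24 in the combination against heteronemin. Counts of members higher in the combination than after heteronemin (4) or tetrac (3) stayed within 1.5 times under each centring and the level correction.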
